A study of Triticum aestivum with 4 samples.

Results

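A set of 152 probe sets, of 61179 tested, gave clearly lower signal in developing seed of the wheat line RL4452 than in seed of Domain. They were chosen on the measured values: the lower of the Domain arrays had to exceed the higher of the RL4452 arrays by more than 3 times. This ratio is called the gap below. Of the 154 probe sets past that threshold, 0.252% of those tested, 2 were left out because Domain replicate 1 stood more than 4 times above each other array, and none had to be left out for belonging to 1 of 6 named genes of grain inhibitor and storage proteins. The 152 are 0.248% of the probe sets tested. Since the values that chose them are the values described, their gaps are a description and carry no test.

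The data are 4 arrays of seed taken 5 days after anthesis from field-grown wheat (Triticum aestivum) at location SB, 2 biological replicates each of RL4452 and Domain (AC Domain in the name of the cross). The 2 lines are the parents of a mapping population. Both genotypes stood in rows of 1.47 m in the same lattice trial, and no treatment distinguished them. The trial had 3 field replications. Samples are numbered 1 and 3 within each genotype, and the labels do not say whether these numbers are those of the field replications. Nothing in the labels gives the number of plants behind a sample. Each array had its own hybridization day, so the spread between these biological replicates may be partly technical.

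Bread wheat is a polyploid, so most of its genes exist as homoeologous copies with closely similar transcripts. The array groups expressed sequences into transcript clusters, named Ta or TaAffx with a number, and gives each sequence in a cluster a further number and a letter S or A for its orientation. A cluster can therefore hold copies from different subgenomes, different alleles and related genes. A probe set whose name ends in a plain _at has probes meant to be unique to it, whereas _a_at, _s_at and _x_at mark probes shared within a gene, with several transcripts or with other sequences. Where the parents of a cross differ in how strongly a gene is expressed, this trait can be mapped in their progeny as any other. The arrays here are of the parents only, so nothing is mapped. A probe set reports hybridization, so a lower amount of RNA and a poorer match of the transcript to the probes cannot be told apart here. Nor can fewer cells of a type and less RNA per cell.

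Every value is a linear ratio to the median of that probe set across the 4 arrays. In all 152 probe sets the Domain arrays were the higher pair, so the lower Domain ratio and the higher RL4452 ratio added to 2 within 0.01. The lower Domain ratio ran from 1.50 to 1.98 and the higher RL4452 ratio from 0.0156 to 0.499. Under this scaling either one fixes the other and the gap, so the ratios do not show which genotype's level sets a gap. The higher Domain ratio had a median of 2.17 and reached 16.8. The median ratio over the set was 1.84 in each Domain array, against 0.257 in RL4452 replicate 1 and 0.281 in replicate 3. Levels of different probe sets cannot be compared on this scale.

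The gaps ran from 3.01 to 127-fold, with a median of 5.38 and quartiles of 3.85 and 10.1. A gap of at most 5-fold was found in 68 probe sets, one above 10-fold in 39, above 20-fold in 16 and above 50-fold in 4. As differences of mean log2 ratios, RL4452 minus Domain, the set had a median of -2.87, or 7.30-fold lower in RL4452, and ran from -1.70 to -7.50. Over all tested probe sets the median was 0.01 and the median absolute difference 0.17. The mirror-image rule, with RL4452 above Domain, was met by 126 probe sets, or 0.206%, with a median gap of 5.41. The distance between the medians was not tested.

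The widest gap belonged to Ta.1725.3.S1_at, where Domain replicate 1 had a ratio of 1.98 and replicate 3 of 2.97, and the same replicates of RL4452 had 0.0115 and 0.0156. The first of these RL4452 ratios was the lowest value of the whole table. Ta.28744.1.S1_at followed with 2.64 and 1.98 in Domain against 0.0186 and 0.0133 in RL4452, a gap of 107-fold, and TaAffx.105083.1.S1_at with 2.36 and 1.98 against 0.0206 and 0.0197, a gap of 96.1-fold. In these 3, the RL4452 arrays lay at most 1.40-fold apart and the Domain arrays at most 1.50-fold. None of the 12 widest gaps has a listed gene.

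TaAffx.91902.1.A1_at had ratios of 2.40 and 1.96 in Domain against 0.0362 and 0.0376 in RL4452, a gap of 52.2-fold. TaAffx.58902.1.S1_x_at had 1.96 and 2.04 against 0.0441 and 0.0426, and Ta.4525.1.A1_at had 1.95 and 2.03 against 0.0487 and 0.0503. In these last 2, replicates of either genotype lay at most 1.04-fold apart. Ta.3527.1.S1_at had 2.58 and 1.95 in Domain against 0.0456 and 0.0541 in RL4452. Ta.1942.2.S1_at had 1.94 and 2.51 against 0.0634 and 0.0562. In these 2 probe sets, the Domain arrays lay 1.32-fold and 1.29-fold apart.

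Both probe sets of the sequence Ta.23366.2.S1 were among the 12, and in both Domain replicate 3 was the higher array. The _at probe set had 1.95 and 4.06 in Domain replicates 1 and 3 against 0.0415 and 0.0534 in RL4452, and the _x_at probe set 1.93 and 3.68 against 0.0731 and 0.0417. Ta.5627.1.S1_at had 2.10 and 1.93 against 0.0321 and 0.0668, so RL4452 replicate 3 was 2.08-fold above replicate 1. Ta.4547.1.A1_at had 3.54 in Domain replicate 1 and 1.93 in replicate 3, against 0.0638 and 0.0726 in RL4452. Which Domain replicate was higher thus differed from probe set to probe set.

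The threshold cut through a continuous range of gaps. Just inside it lay Ta.11562.1.A1_at with a gap of 3.01, and TaAffx.59222.1.S1_at and Ta.1725.1.S1_at, both at 3.03. Just outside lay Ta.3663.1.A1_a_at at 3, Ta.9172.1.S1_at at 2.98 and Ta.6283.1.S1_at at 2.96. Of these 6, 2 belong to clusters whose other sequences were members with wide gaps, Ta.1725 and Ta.9172. A gap above 2-fold, counted with the same exclusions, held for 343 probe sets and one above 4-fold for 109. With 1 array left out the rule asks less, and it was met by 260 probe sets when Domain replicate 1 was dropped, 337 for Domain replicate 3, 483 for RL4452 replicate 1 and 291 for RL4452 replicate 3, each count including the 152.

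Replicates of a genotype mostly lay close together. The higher Domain array was a median of 1.25-fold above the lower one over the 152, against 1.18-fold over all tested probe sets, and the corresponding RL4452 values were 1.20-fold and 1.18-fold. The Domain arrays differed more than 2-fold in 15 members, 9.87% of the set, against 3.22% of all probe sets. For RL4452 this held for 8 members, 5.26%, against 5.40%. Domain replicate 1 was the higher Domain array in 82 members and Domain replicate 3 in 70, while RL4452 replicate 3 was the higher RL4452 array in 92 and replicate 1 in 60.

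The gap exceeded the larger of the 2 within-genotype folds in 149 of the 152. By asking for wide gaps, the rule largely fixes this count. In the other 3 members, 1 array stood apart. In Ta.23142.6.S1_x_at Domain replicate 3 was 10.7-fold above replicate 1, with a gap of 3.62. In Ta.69.2.S1_x_at, Domain replicate 3 stood at 7.20 against 1.54 in replicate 1, with a gap of 3.30. In Ta.7167.1.A1_at the RL4452 arrays differed 3.97-fold, with a gap of 3.66. The rule screened for a lone high Domain replicate 1 but not for a lone high Domain replicate 3. In 3 members that array was more than 4 times above each other array, Ta.69.2.S1_x_at, Ta.23142.5.S1_x_at and Ta.23142.6.S1_x_at.

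In the comparison of all probe sets (limma, Benjamini-Hochberg adjusted p under 0.05), 92 of the 152 were called, and these were all of the calls lower in RL4452, 0.150% of the probe sets tested, where 0.280% were called in either direction. As the rule used the same contrast, this count only shows how the criteria overlap. The called members had a median gap of 8.83-fold and the 60 others 3.66-fold. Calls were made for 37 of 39 members with a gap above 10-fold, 37 of 45 between 5-fold and 10-fold and 18 of 68 at or under 5-fold. The members above 10-fold without a call were Ta.22311.1.S1_s_at, with ratios of 0.0262 and 0.0856 in RL4452 replicates 1 and 3, and Ta.28631.1.S1_at, with 5.09 in Domain replicate 1 and 1.90 in replicate 3. With either Domain array left out no probe set was called (limma, 3292 and 3418 at an unadjusted p under 0.05). Dropping RL4452 replicate 1 left 54 members called, and dropping RL4452 replicate 3 left 62. After quantile normalization 70 were called. With the replicate number as a block no probe set was called (limma, 4555 at an unadjusted p under 0.05), so all 92 calls ended.

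Only 3 members were paired with a gene in the array annotation, 1.97% of the set against 2.08% of all tested probe sets. The gene table lists each as a protein-coding gene with a LOC number and no further name, so no function is given here. LOC780602 was represented by Ta.28514.1.A1_at, with ratios of 1.90 and 1.80 in Domain against 0.173 and 0.199 in RL4452, a gap of 9.05-fold. The array holds 4 other probe sets of this gene. In 3 of them the Domain arrays were again the higher pair, but by gaps of only 1.01 to 1.11-fold. Ta.28514.2.S1_at had 1.05 and 1.39 against 0.948 and 0.601, and Ta.28514.2.S1_s_at had 1.37 and 1.02 against 0.979 and 0.445. In Ta.5937.1.S1_x_at all 4 ratios lay within 0.01 of 1, and in Ta.5937.2.S1_at the genotypes overlapped.

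LOC100037572 has 1 probe set, Ta.13170.1.S1_at, with 1.80 and 1.69 in Domain against 0.270 and 0.315 in RL4452, a gap of 5.35-fold. LOC100125699 has 2. Its member Ta.69.2.S1_x_at had 1.54 and 7.20 in Domain replicates 1 and 3 against 0.449 and 0.465 in RL4452, and its other probe set, Ta.355.1.S1_at, had 0.928 and 1.03 against 0.971 and 1.04, overlapping between genotypes. Another annotated probe set past the threshold was left out by the rule for its high Domain replicate 1. This was Ta.28083.1.S1_at of LOC543404, with 8.25 in Domain replicate 1 and 1.72 in replicate 3 against 0.270 and 0.285 in RL4452.

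The 152 probe sets came from 137 sequences in 130 transcript clusters. For 74 of these clusters the array holds no other probe set. A further 8 held 2 probe sets, both members, and 48 held other probe sets that were not members. In 110 clusters 1 probe set was a member, in 18 there were 2 and in 2 there were 3. Of the 20 clusters with more than 1 member, 7 had members from different sequences and the others had differently designed probe sets of 1 sequence. Members of a cluster may share target RNA, so they are not separate observations of the genotypes.

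Where 1 sequence was read by more than 1 probe set, the readings often differed. This was so for 31 member sequences. In 15 of them all probe sets were members, with a median difference of 0.37 log2 units between the probe sets of a sequence. In Ta.7318.1.S1, for example, the log2 differences between genotypes were -3.58 and -3.54. In the other 16 only 1 probe set was a member, and the median distance was 2.24 log2 units. The rule itself made this split, by placing readings on either side of its threshold, so it largely sets the contrast between these medians. For Ta.3501.1.S1, the _at probe set had ratios of 2.04 and 1.69 in Domain against 0.188 and 0.312 in RL4452, while the _a_at probe set had 1.02 and 1.05 against 0.984 and 0.946. The genotypes were thus far apart in one reading and nearly level in the other. For Ta.18637.1.S1 the readings had opposite signs, at -1.98 and 0.66.

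Over these 16 sequences, the 18 probe sets outside the set had a median log2 difference of -0.58. Both RL4452 arrays lay below both Domain arrays in 11 of them, and the reverse held in 0. Over all tested probe sets, both RL4452 arrays lay below both Domain arrays in 15.5% and above both in 17.0%. These readings come from the same arrays and partly the same sequence as the members, so the count is given without a test.

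The 137 probe sets outside the set for another sequence of a member's cluster lay nearer to the rest of the array. Any that met the rule are members and not among these 137, so the widest gaps are missing by choice. The median log2 difference of the 137 was -0.11, and 93 of them lay within 0.5 of 0. Both RL4452 arrays were below both Domain arrays in 43, or 31.4%, and above both in 21, or 15.3%. A gap above 2-fold in the members' direction was found in 9, or 6.57%, against 0.592% of all tested probe sets. The latter share includes the 152 members, so the 2 shares are not strictly alike. Among the 51 with a plain _at name the share below both Domain arrays was 25.5%, and among the 86 with shared probes it was 34.9%. Cluster Ta.10329 alone contributed 36, and without it the share was 37.6% of 101.

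The share differed with the size of the members' gaps. In the 33 clusters whose members all had gaps of at most 10-fold, 33 of 73 other-sequence probe sets, or 45.2%, had both RL4452 arrays below both Domain arrays, and their median log2 difference was -0.31. In the 10 clusters with a gap above 10-fold it was 10 of 64, or 15.6%, with a median of 0.04. Most of these 64 belong to Ta.10329. Without it the count was 5 of 28, or 17.9%, with a median of 0.11, and 10 of the 28 lay above both Domain arrays. The 10-fold boundary was set after the gaps had been seen, and the contrast was not tested.

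Of the clusters with a member and at least 3 other probe sets, 20 in number, the others had a median log2 difference within 0.5 of 0 in 14. Cluster Ta.10329 was the largest, with 39 probe sets and 3 members. The members were Ta.10329.16.S1_at, with 1.86 and 2.39 in Domain against 0.123 and 0.136 in RL4452, its _x_at counterpart, and Ta.10329.34.S1_x_at, with 1.91 and 1.65 against 0.350 and 0.208. Of the other 36, 35 lay within 0.5 log2 units of 0. The exception was Ta.10329.23.S1_at, which was higher in RL4452, with 0.357 and 0.557 in Domain against 1.56 and 1.44 in RL4452. The low readings in RL4452 were thus those of sequences 16 and 34 of this cluster.

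In cluster Ta.9172, which also had 3 members, all 6 probe sets were lower in RL4452 with no overlap between genotypes. Ta.9172.3.S1_at had the widest gap, with 1.81 and 2.37 against 0.194 and 0.174. Sequence 1 stood on both sides of the threshold, with gaps of 3.88 for _x_at and 2.98 for _at. Sequence 2 had the smallest differences, at -1.83 for _x_at and -0.68 for _at. In Ta.1725, which holds the widest gap of all, the array's 3 sequences were all lower in RL4452. Sequence 3 had a gap of 127-fold, sequence 1 of 3.03 and sequence 2, outside the set, of 2.44. Here all sequences pointed the same way, but by gaps of very different size.

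Clusters Ta.3780, Ta.14595 and Ta.20366 also had other probe sets lower in RL4452. In Ta.3780, Ta.3780.2.S1_a_at had a gap of 13.2-fold and the other 3 probe sets had 1.60 to 2.30. In Ta.14595, the member had 6.63, and 2 of the other 3 had 2.43 and 1.26, while the last overlapped between genotypes. In Ta.20366 the member and 2 others had gaps of 3.15, 2.91 and 2.27. Its remaining sequence, Ta.20366.3.S1_at, pointed the other way, with 0.715 and 0.649 in Domain against 1.29 and 2.20 in RL4452.

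The 9 probe sets of Ta.23142 shared a different pattern. In 8 of them Domain replicate 3 was the highest array, at ratios of 2.65 to 19.2, and in Ta.23142.9.S1_at it stood at 0.973. The member Ta.23142.5.S1_x_at had 1.75 and 11.5 in Domain replicates 1 and 3 against 0.251 and 0.181 in RL4452. The member Ta.23142.6.S1_x_at had 1.57 and 16.8 against 0.321 and 0.433. In these 2 members a gap was thus present with Domain replicate 1 as well, but part of their mean difference rests on Domain replicate 3. Without Domain replicate 3 the log2 differences of these members were -3.04 and -2.07, against -4.40 and -3.78 with all arrays. The 15 probe sets of 7 endosperm genes (gliadins, avenin-like proteins, amylase and trypsin inhibitors and the granule-bound starch synthase Wx-A1) had a high median in the same array. The median log2 ratio was 2.07 there, against 0.27 in Domain replicate 1 and -0.58 and -0.38 in the RL4452 arrays. The 15 were not alike, with log2 differences between genotypes from -2.96 to 2.39, and 13 of them lower in RL4452. Their part in the result was not tested.

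The 5 clusters with the highest medians among at least 3 other probe sets were Ta.23366, Ta.14543, Ta.1942, Ta.27457 and Ta.3501. In Ta.23366, against members at log2 differences of -5.90 and -5.59, the other 4 probe sets had 0.17, 0.32, 1.55 and 1.72. The last, Ta.23366.3.A1_at, had ratios of 0.275 and 0.685 in Domain against 1.55 and 1.32 in RL4452, with no overlap. In Ta.14543, the members had -4.63 and -3.95, and the other 3 had 0.39 to 0.61. In each of these 3, both RL4452 arrays lay above both Domain arrays, but by gaps of only 1.02 to 1.08-fold. Over all tested probe sets, 17.0% had both RL4452 arrays above both Domain arrays. In Ta.1942, the members had -5.21 and -4.10 against 0.15 to 0.64 for the other 4.

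In Ta.27457 and Ta.3501 the other probe sets straddled 0. The member of Ta.27457 had ratios of 2.78 and 1.77 in Domain against 0.226 and 0.231 in RL4452, while its other 6 probe sets had log2 differences of -0.34 to 1.23. The member, Ta.27457.5.S1_x_at, and these 6 all carry the _x_at suffix. Of the 6, 5 had their highest ratio in RL4452 replicate 1. The member of Ta.3501 had a difference of -2.94 and the others -0.10 to 0.27.

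Cluster Ta.14571 was the only one with a member and a probe set that met the mirror-image rule. Ta.14571.2.A1_at had ratios of 2.30 and 1.72 in Domain against 0.277 and 0.226 in RL4452, a gap of 6.22-fold. Ta.14571.1.S1_at had 0.102 and 0.151 in Domain against 2.58 and 1.85 in RL4452, a gap of 12.2-fold in the other direction. The third, Ta.14571.3.S1_x_at, with shared probes, overlapped between genotypes at 1.30 and 0.880 against 1.12 and 0.777. Within this cluster 1 sequence was thus high in each genotype. In 13 of the 48 clusters with non-member probe sets, at least 1 of these had both RL4452 arrays above both Domain arrays, and in 30 at least 1 had both below. Such counts grow with the number of probe sets in a cluster. Of the 155 non-member probe sets, 13.5% had both RL4452 arrays above, against 17.0% of all tested probe sets. Both lay below in 34.8%, against 15.5% of all.

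The names of the members differed from those of the array at large. Clusters with the Ta prefix made up 82.9% of the set and 51.4% of all tested probe sets, and 75.4% of the mirror-image set. Orientation A was found in 26.3% of the set against 17.4% of all, but within the Ta prefix the shares were 29.4% and 24.8%. The _x_at suffix was carried by 17.8% against 11.1%. Of the 27 members with it, 16 share their sequence with an _at probe set, which in most but not all cases is a member too. Where it is, the sequence is counted more than once. Members from clusters of 1 probe set were 48.7% of the set, against 60.2% of all. These shares are descriptions, and signal levels, on which they may depend, are not held by ratios.

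Other features of the arrays that could move with genotype are as follows. Each array had a hybridization day of its own. The order of the days was Domain replicate 1, RL4452 replicate 1, Domain replicate 3 and RL4452 replicate 3. Domain replicate 3 and RL4452 replicate 1 shared fluidics module 2. The rule itself asks for more than 3 times between every Domain and RL4452 array, so the members' values on this pair bear nothing on the module. A sign of RNA quality is the median 3' minus 5' log2 difference of 7 wheat control transcripts. Each end is a ratio to its own median across the 4 arrays, so the measure only ranks the arrays against each other. A value near 0 therefore does not show balanced ends. The Domain arrays both lay within 0.01 of 0, while the RL4452 arrays stood at 0.40 (replicate 3) and -0.22 (replicate 1). Of the endosperm marker probe sets, 13 of 15 were lower in RL4452 by their means, against 48.0% of all tested probe sets, with a median log2 difference of -1.86. Their median log2 ratio was 2.07 in Domain replicate 3 but 0.27 in Domain replicate 1. The markers were chosen with earlier results of these data known, so these shares carry no test. Both RL4452 arrays lay below both Domain arrays in 10 of the 15 and above both in 1, against 15.5% and 17.0% of all. The 28 probe sets of rbcL, a chloroplast gene of green tissue such as the pericarp, had a median of 0.03. The probe set of the heat shock gene hsp16.9A stood at a log2 ratio of 6.28 in Domain replicate 1. None of these marker probe sets is a member. The ratios hold no levels, so the labelled tissue could not be checked by the presence or absence of markers, and the part of these features in the members' differences was not tested.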

How the data were processed

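Seed RNA of 4 samples was hybridised to an Affymetrix wheat array. The authors deposited linear ratios. The submitters' processing notes name RMA, with neither a version nor later steps given in the sources used here. The 4-array median of a feature lay within 0.002 of 1 in 99.5% of the 61290 features. The 111 AFFX controls were left out. Column groups follow the labels, and array settings were read only for fluidics module and hybridization day.

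The set's rule was applied to the ratios, and log2 values were used for differences. All probe sets were fitted with limma 3.58.1 in R 4.3.3 (lmFit, eBayes, genotype as the only term, Benjamini-Hochberg adjusted p under 0.05, two-sided). The fit was checked on simulated data. Python 3.11.15, pandas 2.3.3 and numpy 2.4.6 were used for the tables. The number of arrays limits the precision.

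A transcript cluster is the name up to its first number. Gene names came from the array annotation and the gene table of IWGSC CS RefSeq v2.1, without coordinates. Named probe sets were the annotated members with all probe sets of their genes, the 12 widest gaps, the 3 on either side of the threshold, clusters with 3 members or a mirror-image probe set, and the 5 clusters with the highest and 5 with the lowest medians among at least 3 other probe sets. Others named were chosen after their values were seen. Members, lists and rules were chosen with earlier results of these data known. The alternatives were other gap sizes, other scalings, a replicate block, a robust prior, plain _at probe sets, small clusters and leaving out each array.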

Additional observations from a re-analysis of the deposited data

How the results depend on the processing

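The gap rule found 152 probe sets, and 343 with a 2-fold gap. Leaving out an array, which makes the rule easier to meet, gave 260 to 483. After quantile normalization it found 123, of which 120 were among the 152. The limma calls over all probe sets numbered 171, and 0 to 128 when an array was left out, where the remaining array of a genotype takes its spread from the other genotype. With a replicate block limma called 0 (4555 at an unadjusted p under 0.05). No label says that equal numbers pair samples, and across probe sets the difference between replicates in Domain correlated with that in RL4452 at 0.14. Both replicate 1 arrays were hybridised before both replicate 3 arrays. The members' median log2 difference was -2.87, -2.55 after quantile normalization and -2.94 to -2.80 with an array left out. The rule fixes the direction of every member when an array is dropped, so no stability is read from it. Of the members' cluster neighbours, 54 of 155 had no overlap and were lower in RL4452, and 15 of 56 among plain _at probe sets. With an array left out the count was 70 to 81, or 45.2% to 52.3%, against 29.9% to 33.4% of all probe sets, since fewer arrays overlap less. The neighbours' median of -0.12 became -0.043 among plain _at probe sets, -0.29 in clusters of at most 10 probe sets, and -0.19 to -0.10 with an array left out. The cause of these shifts was not tested. Of the 35 named members 23 were called. Of these, 23 lost the call under the replicate block and also when either Domain array was dropped, 4 without RL4452 replicate 1, and 3 each without RL4452 replicate 3 and after quantile normalization. With 2 arrays per genotype and no signal over background in the files, the number of arrays sets what can be resolved.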
